A study of Rattus norvegicus with 6 samples.

Results

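The collagen chains are the products of the genes named Col, a type number, a and a chain number, and every row of the rat expression table whose symbol has that form was taken. This gave 42 of 32623 annotated genes, grouped by type number as 8 fibrillar chains (types 1, 2, 3, 5 and 11), 8 basement membrane chains (types 4, 15 and 18) and 26 other chains. RNA from rat (Rattus norvegicus) liver was sequenced in 6 libraries. The 3 TAE libraries came from rats of a hepatocellular carcinoma study that underwent transarterial embolization, a blockade of the arteries that feed a liver tumour, and the 3 HCC libraries came from rats of the same study that received no treatment. The labels give the tissue as liver for both groups. They state no strain, age, tumour model, embolic material or time after embolization, and they do not say whether tumour, surrounding liver or both were taken. The comparison asks how collagen transcripts differed in liver tissue after embolization.

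Collagens are secreted as helical trimers of chains built from repeats of glycine and other amino acids. Fibrillar collagens assemble into the banded fibrils of connective tissue and scars, whereas type IV collagen forms the sheet-like network of basement membranes under epithelia and around vessels. In liver, hepatic stellate cells and portal fibroblasts are the main known producers of fibrillar collagen, and scarring of the liver is the gradual build-up of these fibrils.

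Total counts were 14552885 to 16604067 in the TAE libraries and 13448286 to 14370846 in the HCC libraries. TAE replicate 2 was as near to the HCC libraries as to TAE replicate 1. Its log2 CPM values (counts scaled to the library total) correlated across genes at 0.967 to 0.969 with the HCC libraries, at 0.969 with TAE replicate 1 and at 0.935 with TAE replicate 3. Hepatocyte transcripts were abundant in all 6 libraries, with albumin (Alb) at 6948, 5318 and 15304 FPKM (counts relative to exonic length and to the library total) in TAE replicates 1, 2 and 3 and 12096, 14853 and 15868 FPKM in HCC replicates 1, 2 and 3. Of the 12 hepatocyte markers listed, 11 had a row and none of these was at 0 in all libraries.

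Collagen transcripts took a larger part of every TAE library than of any HCC library. The 42 chains together held 1.85%, 0.704% and 0.854% of all counts in TAE replicates 1, 2 and 3, against 0.331%, 0.482% and 0.327% in HCC replicates 1, 2 and 3. Summed over the chains, the level was 2276 ± 1236 FPKM in TAE and 756 ± 171 FPKM in HCC (SD, n = 3 each), a 3.01-fold ratio of means. The lowest TAE library had a sum of 1400 FPKM, against 954 FPKM in the highest HCC library, so the sums did not overlap, and TAE replicate 1 stood far above the other TAE libraries at 3690 FPKM. In bulk tissue, more collagen-producing cells and more collagen RNA per cell cannot be told apart.

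No chain passed the test for a difference over all genes. In edgeR's quasi-likelihood test with Benjamini-Hochberg adjustment, 0 of the 31 chains with enough counts to be tested had an adjusted p under 0.05 in either direction, while 2.70% of the 14499 genes tested were called higher and 0.310% lower in TAE. The lowest adjusted p among the chains was 0.0520, that of Col3a1. At an unadjusted p under 0.05, 20 of the 31 were higher in TAE, compared with 15.9% of all genes tested, and none was lower. DESeq2 on the same libraries called 16 of the 31 higher (10.2% of all genes). Without TAE replicate 2, edgeR called 17 of 32 chains higher (14.6% of all genes), and without TAE replicate 3 it called 2 (4.82%). Without TAE replicate 1 it called none of 31 (0% of all genes). In that run 16 of these 31 had an unadjusted p under 0.05, against 2197 of 14675 genes in either direction. Without any 1 of the HCC libraries edgeR called no chain and no gene higher. In those runs 14 to 20 of 32 chains had an unadjusted p under 0.05. Over all genes these were 1997 to 2243 of the 14812 to 14824 tested, in either direction.

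Most tested chains had positive log2 changes. The fitted log2 change, TAE minus HCC, was positive for 28 of the 31 tested chains, against 46.9% of all genes tested, and at least 1 for 18 of them, against 8.60%. The median over the tested chains was 1.11, and that over all genes tested was -0.03. Every TAE library exceeded every HCC library in FPKM for 22 of the 31 (21.9% of all genes tested) and for 18 after TMM scaling, the edgeR library scaling (18.6%). For none of the 31 was every TAE library below every HCC library. The tested chains had to pass a filter on counts, which favours chains that are high in a group, so these counts describe the list and are no test of it.

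**Figure D1:**
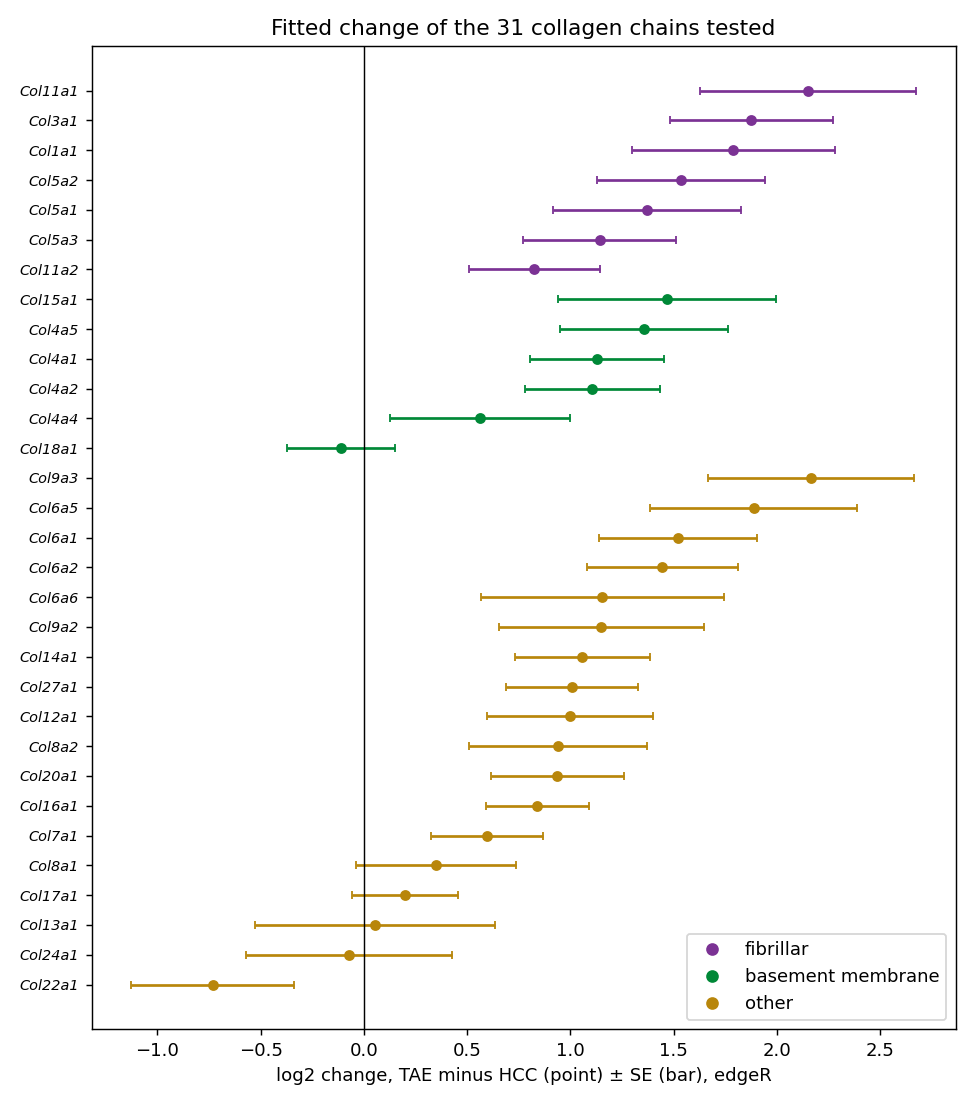
Fitted log2 change, TAE minus HCC, for the 31 chains tested, with its standard error (bars) from edgeR on 3 libraries per group, sorted within the fibrillar, basement membrane and other classes. The points lie right of 0 for all but Col18a1, Col24a1 and Col22a1, and the fibrillar chains span 0.83 to 2.15.

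The promoters of 4 chains are shown because the level ratio is given below for a pair of genes that share a start region and for a pair that do not. Col4a1 and Col4a2, which join in the same type IV trimer, start 77 bases apart on opposite strands in the GRCr8 assembly, so their windows share 176 bases. In the coordinates of the deposited table, whose build is not settled, the starts of the same genes are 83601 bases apart, and this difference was not resolved. Col5a1 and Col5a2, which join in the same type V trimer, lie on different chromosomes. Col4a3 and Col4a4 also start close together on opposite strands, 374 bases apart in the deposited coordinates. Their ratio is not given because Col4a3 had only 45 counts in all. Any link between a shared start region and the level ratio was not tested. Each RefSeq window of build GRCr8 runs 5′ to 3′ on the gene's own strand from 250 bases before to 50 bases after the start. Capitals mark CCAAT and GGGCGG on either strand, matches that did not overlap each other in these windows.
Col4a1 (chr16:84885347-84885646, + strand): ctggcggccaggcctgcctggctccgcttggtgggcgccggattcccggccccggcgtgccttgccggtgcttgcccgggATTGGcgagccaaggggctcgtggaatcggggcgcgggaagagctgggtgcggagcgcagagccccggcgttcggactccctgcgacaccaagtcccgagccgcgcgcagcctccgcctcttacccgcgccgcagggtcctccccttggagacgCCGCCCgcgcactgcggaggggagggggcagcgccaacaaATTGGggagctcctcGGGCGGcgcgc
Col4a2 (chr16:84885471-84885770, - strand): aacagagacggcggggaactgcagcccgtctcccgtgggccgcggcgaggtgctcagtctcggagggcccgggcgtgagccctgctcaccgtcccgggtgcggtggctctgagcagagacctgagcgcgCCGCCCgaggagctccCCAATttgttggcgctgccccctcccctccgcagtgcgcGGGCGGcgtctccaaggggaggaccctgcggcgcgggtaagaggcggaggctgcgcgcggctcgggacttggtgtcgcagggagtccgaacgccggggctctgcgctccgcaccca
Col5a1 (chr3:31606630-31606929, + strand): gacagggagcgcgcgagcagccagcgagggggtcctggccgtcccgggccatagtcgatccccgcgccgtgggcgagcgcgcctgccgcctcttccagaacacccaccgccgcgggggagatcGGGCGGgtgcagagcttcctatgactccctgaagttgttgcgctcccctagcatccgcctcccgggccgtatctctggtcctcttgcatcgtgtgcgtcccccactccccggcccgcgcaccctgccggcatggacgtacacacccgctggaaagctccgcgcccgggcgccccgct
Col5a2 (chr9:55090102-55090401, - strand): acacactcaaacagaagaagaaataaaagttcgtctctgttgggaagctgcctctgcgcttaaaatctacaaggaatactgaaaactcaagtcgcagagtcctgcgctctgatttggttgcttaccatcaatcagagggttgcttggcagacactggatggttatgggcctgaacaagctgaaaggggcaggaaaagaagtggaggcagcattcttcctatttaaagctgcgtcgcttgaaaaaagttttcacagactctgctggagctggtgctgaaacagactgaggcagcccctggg
CCAAT occurred in 37.5% and GGGCGG in 33.1% of all 33469 windows of the RefSeq table. Of the 33 chains with a window, 10 held CCAAT and 19 held GGGCGG in the first window listed. The Col4a1 window held 2 matches of each motif and the Col4a2 window 1 CCAAT and 2 GGGCGG. All matches of the Col4a2 window lay in the shared stretch and are the same sites as in the Col4a1 window. Only 1 CCAAT of the Col4a1 window lay outside that stretch. Col5a1 held 1 GGGCGG, and Col5a2 held neither in a window of 47.7% G and C, against 72.0% for Col5a1.

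Fibrillar chains made up most of the collagen signal and had the largest ratio between groups of the 3 classes. Their summed level was 2634, 941 and 1147 FPKM in TAE replicates 1, 2 and 3, against 367, 579 and 354 FPKM in HCC replicates 1, 2 and 3. The ratio of the group means was 3.63, and the sums did not overlap. The log2 ratio of the means was 1.86 with all libraries, 1.27 without TAE replicate 1 and 2.12 without TAE replicate 2. The log2 change was positive for all 7 tested fibrillar chains (median 1.54), all 7 had all TAE libraries above all HCC libraries under both scalings (21.9% and 18.6% of all genes), and none passed the adjusted threshold.

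**Figure D2:**
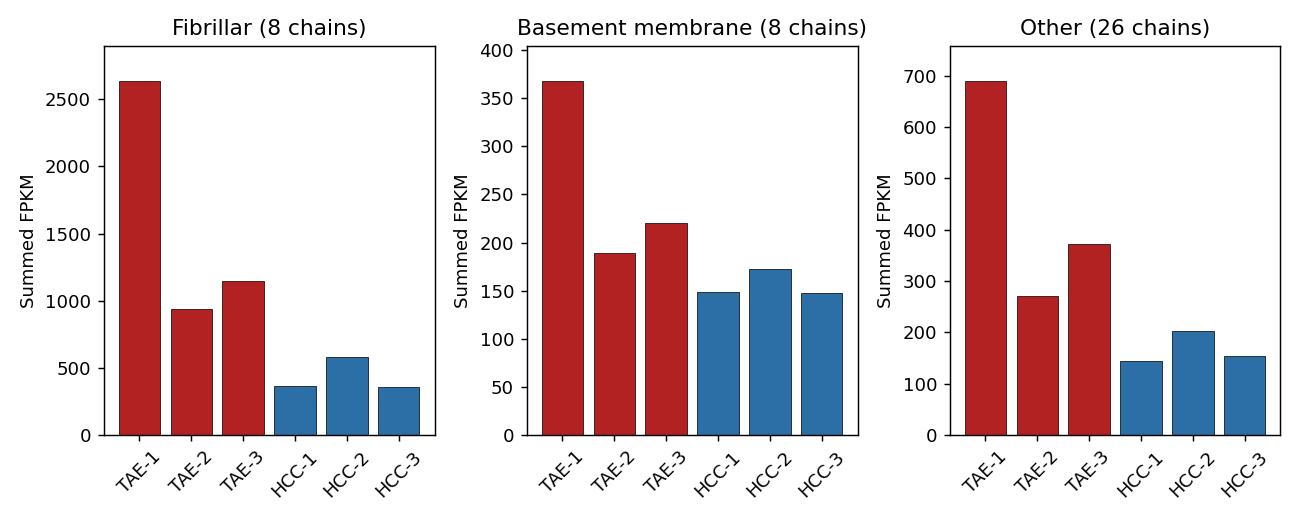
Summed FPKM of the fibrillar, basement membrane and other chains in each library (bars from 0), TAE libraries left of HCC libraries. In each class all 3 TAE sums exceed all 3 HCC sums, and TAE replicate 1 is the highest, with 2634 FPKM for the fibrillar chains.

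Col3a1, the chain of type III collagen that co-assembles with type I in pliable tissue and early scars (gene ENSRNOG00000003357, chromosome 9, 52023295 to 52059217, where gene coordinates are those of the deposited table and their build is not settled), was the most abundant collagen transcript in every library. It stood at 1468, 538 and 738 FPKM in TAE replicates 1, 2 and 3 and at 224, 302 and 199 FPKM in HCC replicates 1, 2 and 3. Ranked by FPKM among all genes, it was the 31st, 134th and 94th gene in the TAE libraries, against the 320th, 243rd and 366th in the HCC libraries. Its log2 change was 1.87 ± 0.40 (SE, edgeR adjusted p = 0.0520). The groups did not overlap, and limma on log2(FPKM + 1) called it (the only chain of 25 tested there, where 4.27% of all genes were called higher).

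Col1a1, the main chain of type I collagen and of mature scar fibrils (gene ENSRNOG00000003897, chromosome 10, 82745801 to 82762789), stood at 967, 328 and 328 FPKM in TAE replicates 1, 2 and 3 and at 107, 220.1 and 122 FPKM in HCC replicates 1, 2 and 3. TAE replicate 1 was far above all other libraries, HCC replicate 2 was the highest of its group, and the groups did not overlap. The log2 change was 1.79 ± 0.49 (SE, edgeR adjusted p = 0.0964). Leaving out TAE replicate 1 gave a log2 change of 1.11 (edgeR adjusted p = 0.230). The chain passed when TAE replicate 2 was left out (2.08, edgeR adjusted p = 0.0240) and when TAE replicate 3 was left out (2.02, edgeR adjusted p = 0.0490). Its partner Col1a2, the other chain of type I collagen, matched no row of the table and was not analysed here.

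Type V collagen is a minor fibrillar collagen that nucleates type I fibrils and limits their diameter. Col5a2 (chromosome 9, 52092511 to 52238564, next to Col3a1 and facing it) stood at 100.1, 34.6 and 44.1 FPKM in TAE replicates 1, 2 and 3 and at 19.8, 24.8 and 15.0 FPKM in HCC replicates 1, 2 and 3. Col5a1 stood at 68.4, 24.6 and 22.8 FPKM in the TAE libraries and at 11.1, 20.2 and 11.4 FPKM in the HCC libraries. Col5a3, the third type V chain, stood at 23.9, 13.04 and 11.3 FPKM in the TAE libraries and at 4.47, 10.3 and 6.15 FPKM in the HCC libraries. For each of these chains the lowest TAE library was above the highest HCC library, which was HCC replicate 2. The margin was 34.6 against 24.8 FPKM for Col5a2, and narrower for Col5a1 (22.8 against 20.2 FPKM) and Col5a3 (11.3 against 10.3 FPKM). Their log2 changes were 1.54 ± 0.41, 1.37 ± 0.46 and 1.14 ± 0.37 (SE) for Col5a2, Col5a1 and Col5a3, with edgeR adjusted p of 0.0882, 0.143 and 0.136. Without TAE replicate 1 the log2 change of Col5a1 was 0.71.

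The fibrillar chains known mainly from cartilage were low. Col11a1, a type XI chain singled out here after its values were seen, stood at 6.66, 1.66 and 2.87 FPKM in TAE replicates 1, 2 and 3 and at 0.60, 1.06 and 0.78 FPKM in HCC replicates 1, 2 and 3. Its log2 change of 2.15 ± 0.52 (SE, edgeR adjusted p = 0.0708) was the largest of the fibrillar class, and was 1.499 without TAE replicate 1. Col11a2 stayed at or below 0.37 FPKM in all libraries, and Col2a1, the chain of cartilage type II collagen, had 7 counts over all 6 libraries and was not tested.

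**Figure D3:**
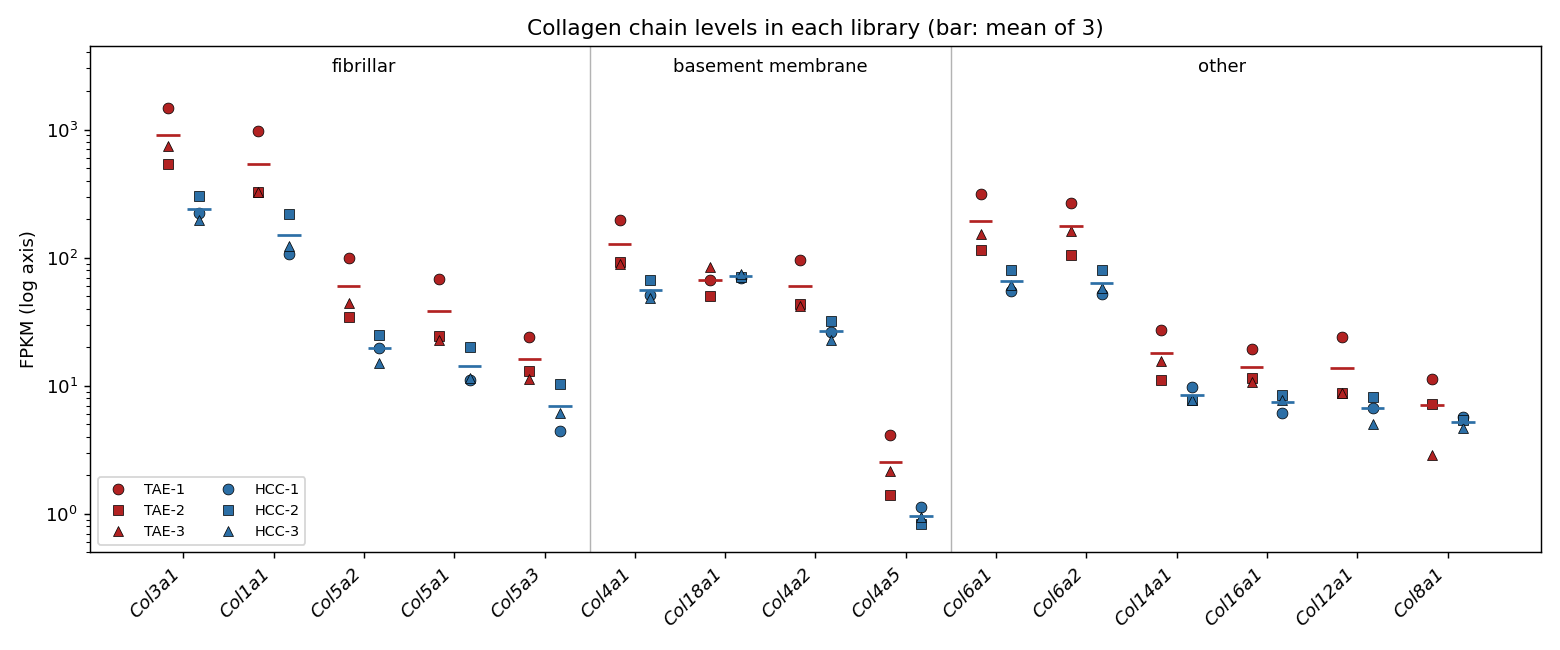
FPKM on a log axis of the 15 chains given in full, by class, with TAE libraries in red left of HCC libraries in blue (symbols mark replicates 1 to 3, bars the mean of 3). All TAE points lie above all HCC points for 13 of the 15 (21.9% of all genes tested), the exceptions being Col18a1 and Col8a1. After TMM scaling, not drawn here, all TAE libraries were above all HCC libraries for 11 of the 15 (18.6%). TAE replicate 1 is the highest TAE library for most.

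Col5a1 relative to Col1a1 was lower in every TAE library than in any HCC library. Within each library, the ratio of their FPKM was 0.0707, 0.0750 and 0.0696 in TAE replicates 1, 2 and 3, against 0.104, 0.0919 and 0.0936 in HCC replicates 1, 2 and 3. A ratio within a library does not depend on how libraries are scaled, and it shows unequal change of the chains, not which of them changed. The mean log2 ratio was 0.42 lower in TAE (log2 difference -0.42, two-sided exact permutation test p = 0.1, the smallest that 3 against 3 libraries allow, 0.4 adjusted over the 4 ratios tested). The other type V chain set against Col1a1 overlapped: Col5a2 over Col1a1 was 0.104, 0.105 and 0.134 in TAE replicates 1, 2 and 3 and 0.185, 0.112 and 0.123 in HCC replicates 1, 2 and 3, a ratio looked at after the values were seen and not tested. Col5a2 relative to Col3a1, likewise looked at afterwards and not tested, was 0.0682, 0.0642 and 0.0597 in the TAE libraries and 0.0883, 0.0818 and 0.0755 in the HCC libraries. Type III relative to type I showed no such separation, as Col3a1 over Col1a1 was 1.52, 1.64 and 2.25 in TAE replicates 1, 2 and 3 and 2.09, 1.37 and 1.62 in HCC replicates 1, 2 and 3 (log2 difference 0.09, exact permutation p = 0.6).

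Basement membrane chains had the smallest ratio of summed FPKM between groups of the 3 classes. By class median log2 change the other chains were lowest, at 0.97, against 1.12 for the basement membrane chains. The summed level was 368, 189 and 219.8 FPKM in TAE replicates 1, 2 and 3, against 149, 173 and 147 FPKM in HCC replicates 1, 2 and 3, a 1.66-fold ratio of means without overlap. The log2 ratio of the means was 0.73 with all libraries, and leaving out TAE replicate 1 or 2 gave 0.39 or 0.91. Without Col18a1, a sum chosen after the values were seen, it was 1.18. Of the 6 tested chains, 5 had positive log2 changes and the class median was 1.12, and none passed the adjusted threshold. For 4 of these 6, all TAE libraries were above all HCC libraries in FPKM (21.9% of all genes tested).

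Col4a1 and Col4a2, the common type IV chains of vessel and sinusoid walls, kept a nearly constant ratio over the libraries. Col4a1 (chromosome 16, 83522162 to 83632153) stood at 198, 92.7 and 89.2 FPKM in TAE replicates 1, 2 and 3 and at 51.5, 67.2 and 48.1 FPKM in HCC replicates 1, 2 and 3, a log2 change of 1.13 ± 0.32 (SE, edgeR adjusted p = 0.105). Col4a2 (chromosome 16, 83387364 to 83438561) stood at 95.5, 43.9 and 42.0 FPKM in the TAE libraries and at 26.1, 32.1 and 22.6 FPKM in the HCC libraries, a log2 change of 1.11 ± 0.33 (SE, edgeR adjusted p = 0.111). For both, the groups did not overlap and TAE replicate 1 was the highest library. The ratio of Col4a1 to Col4a2 was 2.08, 2.11 and 2.13 in TAE replicates 1, 2 and 3 and 1.97, 2.09 and 2.12 in HCC replicates 1, 2 and 3. Over the 6 libraries it thus spanned 1.97 to 2.13 while the level of Col4a1 spanned 48.1 to 198 FPKM (log2 difference of the ratio 0.03, exact permutation p = 0.6). Col5a1 over Col5a2, the chains of a trimer whose genes lie on different chromosomes, was 0.683, 0.712 and 0.517 in TAE replicates 1, 2 and 3 and 0.560, 0.817 and 0.764 in HCC replicates 1, 2 and 3, a ratio looked at after the values were seen and not tested.

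Col18a1, the multiplexin whose C-terminal fragment is endostatin and which hepatocytes are known to express (gene ENSRNOG00000001229, chromosome 20, 12225202 to 12332858), was the abundant chain of the class whose groups overlapped. It stood at 67.2, 49.9 and 84.0 FPKM in TAE replicates 1, 2 and 3 and at 69.0, 71.1 and 74.6 FPKM in HCC replicates 1, 2 and 3. The groups overlapped, with the TAE libraries spread on both sides of the narrow HCC range, and the log2 change was -0.11 ± 0.26 (SE, edgeR adjusted p = 0.812). Relative to Col4a1 it was 0.339, 0.539 and 0.942 in the TAE libraries and 1.34, 1.06 and 1.55 in the HCC libraries, ratios looked at after the values were seen and not tested. Among the TAE libraries Col18a1 was lowest in replicate 2 and highest in replicate 3, which is also the order of the summed hepatocyte markers, at 13117, 9944 and 28576 FPKM in TAE replicates 1, 2 and 3, against 22823 to 27998 FPKM in the HCC libraries. That order was not particular to the hepatocyte markers. The summed endothelial markers had it too, at 128, 84.8 and 149 FPKM in TAE replicates 1, 2 and 3. So did the summed macrophage markers, at 4860, 3861 and 5571 FPKM. The part of hepatocytes or of any other cell type in the Col18a1 level was not tested.

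The remaining basement membrane chains were low. Col4a5, a type IV chain of the X chromosome, stood at 4.10, 1.40 and 2.17 FPKM in TAE replicates 1, 2 and 3 and at 1.14, 0.83 and 0.94 FPKM in HCC replicates 1, 2 and 3, without overlap (log2 change 1.36 ± 0.41, SE, edgeR adjusted p = 0.115). The other 4 chains of the class, Col15a1, Col4a4, Col4a3 and Col4a6, had mean levels of 0.0733 to 0.698 FPKM over all libraries. Col4a3 and Col4a6, with 45 and 37 counts in all, were below the count filter.

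The 26 other chains summed to 689, 270.2 and 371 FPKM in TAE replicates 1, 2 and 3, against 144, 202 and 153 FPKM in HCC replicates 1, 2 and 3, a 2.67-fold ratio of means without overlap. Of the 18 tested, 16 had positive and 2 negative log2 changes, the median was 0.97, and none passed the adjusted threshold. For 11 of them all TAE libraries exceeded all HCC libraries in FPKM (21.9% of all genes tested), and for 7 after TMM scaling (18.6%). Leaving out TAE replicate 1 lowered the class median to 0.47.

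Type VI collagen, which forms beaded microfibrils between cells and the fibrillar network, supplied most of this class. Col6a1 (gene ENSRNOG00000001249, chromosome 20, 12658065 to 12675561) stood at 313, 114 and 154 FPKM in TAE replicates 1, 2 and 3 and at 54.6, 80.4 and 60.7 FPKM in HCC replicates 1, 2 and 3. Its neighbour Col6a2 (gene ENSRNOG00000001254, chromosome 20, 12773427 to 12801180) stood at 267.5, 105 and 160.2 FPKM in the TAE libraries and at 52.2, 80.7 and 57.7 FPKM in the HCC libraries. Neither chain overlapped between groups, with log2 changes of 1.52 ± 0.38 and 1.44 ± 0.37 (SE, edgeR adjusted p = 0.0772 for Col6a1 and 0.0796 for Col6a2). The ratio of Col6a2 to Col6a1 was 0.855 to 1.04 over the TAE libraries and 0.951 to 1.00 over the HCC libraries. The third chain of the common type VI trimer, Col6a3, had no row under that symbol, but a row with the clone symbol AABR07068316.1 is described in the table as this chain. That row, which is not among the 42, stood at 66.8, 26.8 and 27.1 FPKM in TAE replicates 1, 2 and 3 and at 13.4, 18.8 and 11.2 FPKM in HCC replicates 1, 2 and 3 (log2 change 1.41 ± 0.39, SE, edgeR adjusted p = 0.0954). It was at 0.176 to 0.235 of the Col6a1 level in the TAE libraries and at 0.185 to 0.246 in the HCC libraries (log2 difference -0.09, exact permutation p = 0.6).

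Col14a1, Col12a1 and Col16a1 are known as fibril-associated collagens. Col14a1, whose protein binds fibril surfaces through decorin, stood at 27.2, 11.1 and 15.6 FPKM in TAE replicates 1, 2 and 3 and at 9.78, 7.72 and 7.68 FPKM in HCC replicates 1, 2 and 3. Col12a1, a fibril-associated chain of tissues under tension, stood at 23.9, 8.80 and 8.85 FPKM in the TAE libraries and at 6.71, 8.20 and 5.02 FPKM in the HCC libraries. Both had TAE libraries above all HCC libraries in FPKM and overlapped after TMM scaling, where TAE replicate 2 was scaled down. Col16a1, another fibril-associated chain, stood at 19.5, 11.5 and 10.6 FPKM in the TAE libraries and at 6.15, 8.44 and 7.75 FPKM in the HCC libraries and stayed separate under both scalings. Their log2 changes were 1.06 ± 0.33, 1.00 ± 0.40 and 0.84 ± 0.25 (SE) for Col14a1, Col12a1 and Col16a1, with edgeR adjusted p of 0.122, 0.202 and 0.111. Without TAE replicate 1 the log2 change of Col12a1 was 0.39.

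Col8a1, a short-chain collagen of vessel walls, was the abundant chain of this class that overlapped. It stood at 11.3, 7.17 and 2.86 FPKM in TAE replicates 1, 2 and 3 and at 5.65, 5.41 and 4.67 FPKM in HCC replicates 1, 2 and 3 (log2 change 0.35 ± 0.39, SE, edgeR adjusted p = 0.594). TAE replicates 1 and 2 lay above and TAE replicate 3 below the HCC range, and without TAE replicate 1 the log2 change was -0.16.

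The other 20 chains of the class had mean levels from 0 to 4.17 FPKM, and 12 of them were tested. Col6a5 and Col9a3, singled out after their values were seen, had the largest log2 changes of the class. Col6a5, a further type VI chain, stood at 10.1, 2.75 and 6.94 FPKM in TAE replicates 1, 2 and 3 and at 1.15, 2.19 and 1.91 FPKM in HCC replicates 1, 2 and 3 (log2 change 1.89 ± 0.50, SE, edgeR adjusted p = 0.0879). Col9a3, a chain of type IX collagen known from cartilage, had only 26, 16 and 22 counts in the TAE libraries and 2, 5 and 5 counts in the HCC libraries (log2 change 2.16 ± 0.50, SE, edgeR adjusted p = 0.0636). Its partner Col9a1 had no count in any library. The negative log2 changes were those of Col22a1 (-0.73 ± 0.40, SE, edgeR adjusted p = 0.304), a chain of tissue junctions, and Col24a1 (-0.07 ± 0.50, SE, edgeR adjusted p = 0.941), both at 0.78 FPKM or less in every library.

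Of the 44 mammalian chains listed for the check of completeness, Col1a2 and Col6a3 had no row under their symbols. Of the 42 with a row, 11 had too few counts to be tested. Col9a1, Col19a1 and Col23a1 had no count in any library, and a count of 0 (up to 3 counts) allows up to 0.0586, 0.0658 and 0.186 FPKM in the shallowest library for these chains, for counting error only. Col2a1, Col10a1 and Col26a1 had 7, 2 and 2 counts in total. Col4a3, Col4a6, Col6a4, Col25a1 and Col28a1 had 37 to 50 counts in total, and among the untested chains Col4a3 and Col25a1 had every TAE library above every HCC library. Where a chain is near 0, a difference was not detectable at this depth.

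**Figure D4:**
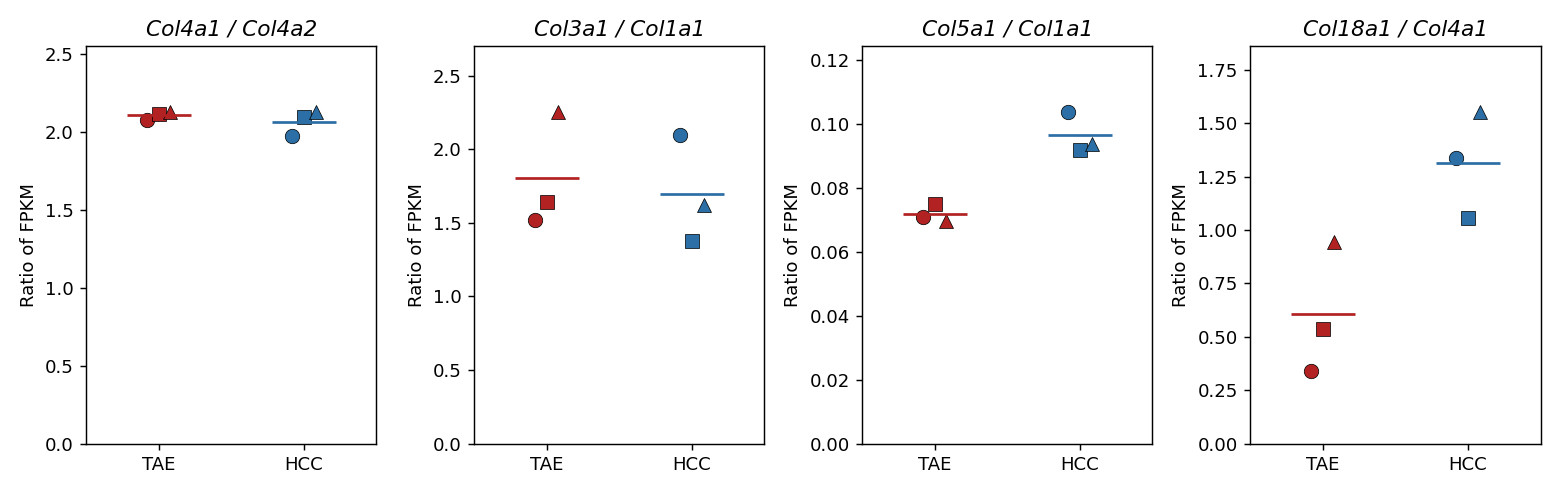
Ratio of FPKM between chains within each library, TAE left of HCC (symbols mark replicates 1 to 3, bars the mean of 3, axes from 0). Col4a1 over Col4a2 stays between 1.97 and 2.13, Col3a1 over Col1a1 overlaps, and Col5a1 over Col1a1 and Col18a1 over Col4a1 are lower in every TAE library than in any HCC library.

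Of the groups of enzymes that act on the chains after they are made, those that cross-link fibrils had the highest median log2 change. Of 5 lysyl oxidases tested, 1 rose, Loxl1, which stood at 20.8, 10.3 and 12.7 FPKM in TAE replicates 1, 2 and 3 and at 3.06, 5.06 and 4.41 FPKM in HCC replicates 1, 2 and 3 (log2 change 1.76 ± 0.32, SE, edgeR adjusted p = 0.0437). Lox, the most abundant of them, stood at 124, 41.8 and 41.0 FPKM in the TAE libraries and 16.3, 32.0 and 18.5 FPKM in the HCC libraries without passing (log2 change 1.57, edgeR adjusted p = 0.119). The median log2 change of the 5 was 1.06, with Loxl3 at 0.31 and Loxl4 at -0.14, both named after their values were seen. For 3 of the 5 all TAE libraries were above all HCC libraries in FPKM (21.9% of all genes tested). Their median log2 level relative to the HCC mean was 1.83, 0.32 and 0.56 in TAE replicates 1, 2 and 3. That of the modifying enzymes described next was 0.28, 0.07 and 0.47. None of 13 collagen hydroxylases, isomerases and glycosyltransferases passed (median 0.32), and none of 11 genes of procollagen folding, secretion and cleavage passed (median 0.20). All TAE libraries were above all HCC libraries in FPKM for 7 of the 13 and for 4 of the 11 (21.9% of all genes tested). P4hb, a subunit of prolyl hydroxylase and the most abundant of the modifying group, averaged 588 ± 43.2 FPKM in TAE and 534 ± 20.0 FPKM in HCC (SD, n = 3 each). Plod2, a lysyl hydroxylase whose products feed stable cross-links, named after its values were seen, stood at 114, 48.2 and 55.8 FPKM in TAE replicates 1, 2 and 3 and at 19.4, 32.9 and 18.3 FPKM in HCC replicates 1, 2 and 3 (log2 change 1.57 ± 0.38, SE, edgeR adjusted p = 0.0693). P3h3, likewise named afterwards and of the prolyl 3-hydroxylase family, had the lowest adjusted p of the modifying group (log2 change 1.52 ± 0.32, SE, edgeR adjusted p = 0.0516). Adamts2, also named afterwards, a protease that removes the amino-terminal propeptide, had the lowest of the folding, secretion and cleavage group (log2 change 1.32 ± 0.29, SE, edgeR adjusted p = 0.0586). Serpinh1, the collagen chaperone HSP47 and the most abundant of the folding group, stood at 465, 347 and 199.8 FPKM in TAE replicates 1, 2 and 3 and at 275, 331 and 310.5 FPKM in HCC replicates 1, 2 and 3. It did not pass and overlapped between groups (log2 change 0.06, edgeR adjusted p = 0.893), with TAE replicate 3 the lowest of the 6 libraries while its Col3a1 level was above that of every HCC library.

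Collagen receptors and basement membrane partners gave no call. None of 7 collagen receptors tested passed (median log2 change 0.15), with the integrin subunit Itgb1, the most abundant, at 177 ± 35.8 FPKM in TAE and 153 ± 5.85 FPKM in HCC (SD, n = 3 each). None of 11 laminins, nidogens and agrin tested passed (median 0.16). All TAE libraries were above all HCC libraries in FPKM for 4 of them (21.9% of all genes tested). Lamb1, the most abundant over all 6 libraries, averaged 36.7 ± 13.2 FPKM in TAE and 38.3 ± 0.892 FPKM in HCC. The nidogens link laminin to type IV collagen, and both are named here after their values were seen. Nid1 stood at 82.1, 32.1 and 39.7 FPKM in TAE replicates 1, 2 and 3 and at 15.96, 20.98 and 14.5 FPKM in HCC replicates 1, 2 and 3 (log2 change 1.53 ± 0.36, SE, edgeR adjusted p = 0.0659). Nid2 stood at 11.9, 4.65 and 9.97 FPKM in the TAE libraries and at 2.94, 2.33 and 1.88 FPKM in the HCC libraries (log2 change 1.87 ± 0.39, SE, edgeR adjusted p = 0.0520). Of 14 ligands, receptors and mediators of TGF-beta and PDGF signalling tested, 1 rose and none fell (median 0.67). This was Tgfb1, a cytokine known to induce collagen genes, at 63.4, 59.7 and 55.0 FPKM in TAE replicates 1, 2 and 3 and at 28.2, 32.8 and 31.5 FPKM in HCC replicates 1, 2 and 3 (log2 change 0.89 ± 0.13, SE, edgeR adjusted p = 0.0388). Among the TAE libraries Tgfb1 spanned 55.0 to 63.4 FPKM and Col1a1 spanned 328 to 967 FPKM. The part of Tgfb1 in the collagen levels was not tested.

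Markers of collagen-producing cells moved with the collagens. Of 14 stellate cell and fibroblast markers tested, Lum and Fbln1 rose and none fell, 13 had positive log2 changes, and the median was 1.19. The summed level of the 15 listed was 661 to 1373 FPKM in TAE and 346 to 501 FPKM in HCC, and Mfap4 was listed at 0 in all libraries. Relative to the HCC mean, the median log2 level of these markers was 1.89, 0.63 and 1.13 in TAE replicates 1, 2 and 3, and that of the fibrillar chains was 2.27, 0.78 and 1.32, the same order of libraries. That order was not particular to these markers. It was also the order of the cholangiocyte markers (1.51, 0.24 and 0.70) and of the cross-linking enzymes (1.83, 0.32 and 0.56). The folding, secretion and cleavage genes (0.53, 0.09 and 0.19) and the TGF-beta and PDGF signalling genes (0.96, 0.28 and 0.39) shared it as well. The smooth muscle and pericyte, endothelial, macrophage and hepatocyte markers had other orders. Fibrillar FPKM divided by the summed marker FPKM, a measure added after the values were seen and not tested, was 1.92, 1.42 and 1.34 in the TAE libraries and 1.06, 1.16 and 1.01 in the HCC libraries. Of 8 smooth muscle and pericyte markers none passed (median 0.75, summed level 82.7 to 163 FPKM in TAE and 56.5 to 78.3 FPKM in HCC, none at 0). The part of cell composition in the collagen levels was not tested.

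Markers of other cell types were also among the genes that rose. Of 10 macrophage markers tested, Cd68, Csf1r, Msr1 and Lyz2 rose and none fell (2.70% of all genes tested were called higher). The median was 1.18, and 8 had positive log2 changes. Cd163 and Clec4f, named after their values were seen, had negative ones (-0.10 and -0.38). The summed level was 3861 to 5571 FPKM in TAE and 1430 to 1743 FPKM in HCC. Most of that sum in every TAE library was Lyz2, which averaged 3226 FPKM in TAE and 801 FPKM in HCC. Of 9 cholangiocyte markers Cftr rose and none fell, and 8 had positive log2 changes (median 0.83). Their summed level was 118 to 264 FPKM in TAE and 23.5 to 65.0 FPKM in HCC. Most of that sum in every TAE library was Spp1, which did not pass (edgeR adjusted p = 0.0982). Spp1 stood at 209, 88.0 and 176 FPKM in TAE replicates 1, 2 and 3 and at 3.21, 40.7 and 14.5 FPKM in HCC replicates 1, 2 and 3. None of 10 endothelial markers passed (median 0.42, summed level 84.8 to 149 FPKM in TAE and 82.2 to 97.2 FPKM in HCC), and none of 11 hepatocyte markers passed (median -0.53, all 11 negative). No marker of these lists was at 0 in all libraries. The collagens were highest in TAE replicate 1, whereas the macrophage markers were highest in TAE replicate 3. The 9 listed genes said here to have risen (Loxl1, Tgfb1, Lum, Fbln1, Cd68, Csf1r, Msr1, Lyz2 and Cftr) all passed without TAE replicate 2 or TAE replicate 3, and none passed without TAE replicate 1 or any 1 of the HCC libraries (lowest edgeR adjusted p 0.142), where their log2 changes stayed positive at 0.82 to 2.73. Without TAE replicate 2, edgeR called 11 of 14 stellate cell and fibroblast markers, 8 of 10 macrophage markers and 3 of 5 lysyl oxidases higher (14.6% of all genes). Without TAE replicate 3 it called 10 of the 11 hepatocyte markers lower, against 517 of 14714 genes. In that run 1 endothelial marker was also called lower, and 7 macrophage markers were called higher and 1 lower.

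**Figure D5:**
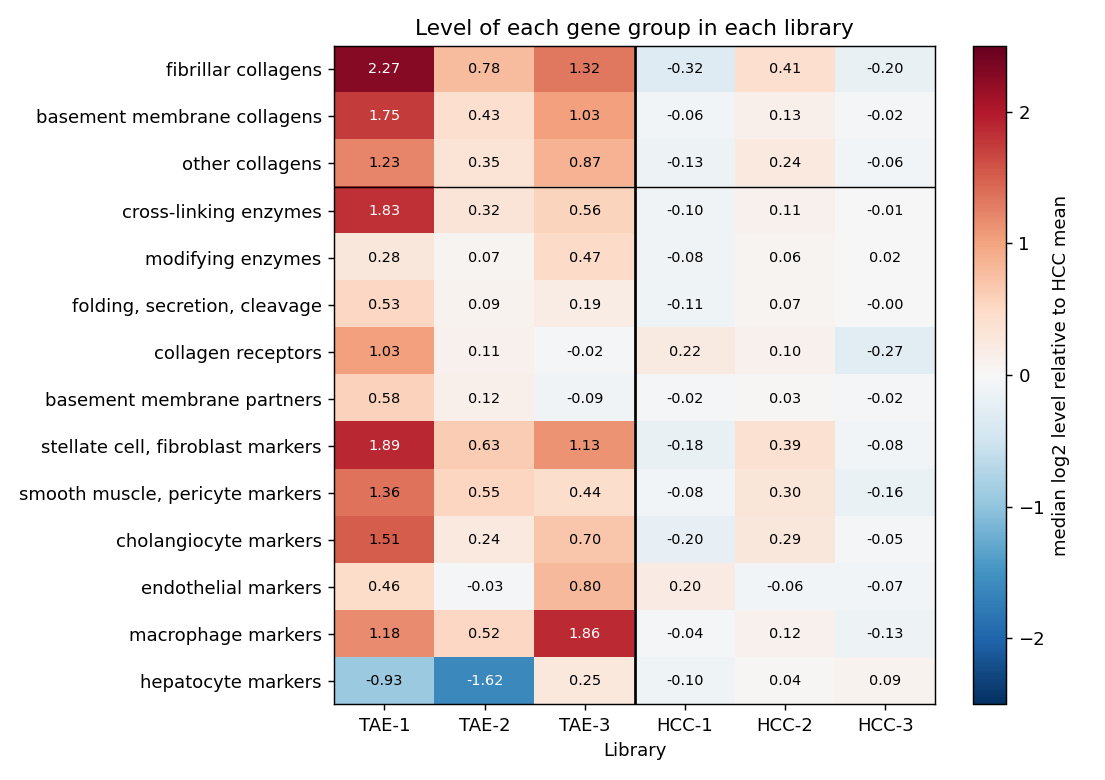
Median log2 level of each gene group (tested members) in each library relative to the mean of the 3 HCC libraries, TAE libraries left of HCC libraries. The fibrillar chains stand at 2.27, 0.78 and 1.32 in TAE replicates 1 to 3, and the stellate cell and fibroblast markers at 1.89, 0.63 and 1.13, while the hepatocyte markers stand at -0.93, -1.62 and 0.25.

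The order of the TAE libraries was shared by most chains. After TMM scaling, TAE replicate 1 was the highest TAE library for 22 of the 31 tested chains, TAE replicate 3 for 8 and TAE replicate 2 for 1. TAE replicate 2 was the lowest for 27 of the 31. The chains are transcripts of the same libraries and are not replicates of the condition. Fibrillar over basement membrane FPKM was higher in every TAE library than in any HCC library. The ratio was 7.16, 4.97 and 5.22 in TAE replicates 1, 2 and 3 and 2.47, 3.36 and 2.41 in HCC replicates 1, 2 and 3. Without Col18a1, left out after the values were seen, this ratio was 8.77, 6.76 and 8.45 in the TAE libraries. In the HCC libraries it was then 4.61, 5.71 and 4.88, so the groups still did not overlap. Neither ratio of class sums was tested.

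Calls also depended on some scalings and filters. With median-of-ratios scaling edgeR called 0 of 31 chains, and with a filter at a mean of 1 FPKM it called 0 of 22. Without TMM scaling edgeR called 6 of 31 chains higher (6.63% of all genes), namely Col3a1, Col11a1, Col6a1, Col6a2, Col6a5 and Col9a3. Without a count filter it called 6 of 39 (3.51% of all genes), among them Col3a1, Col5a2, Col6a1 and Col6a2. DESeq2 called Col1a1, Col3a1, Col5a1, Col5a2, Col5a3 and Col11a1 of the fibrillar class, Col4a1, Col4a2 and Col4a5 of the basement membrane class and 7 others. In none of these settings was a chain called lower.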

How the data were processed

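RNA of rat liver was measured in 3 TAE and 3 HCC libraries, grouped by their titles. Per the labels' protocols, poly(A)-selected, strand-specific libraries were sequenced as paired ends. Per the file headers, the authors deposited raw counts together with FPKM values. Recomputing FPKM from count, exonic length and library total matched 100% of the deposited values to within 0.006. The build named in the submitters' processing notes is mRatBN7.2, but gene ends on chromosome 1 reach 282724300, so the build of the printed gene coordinates is not settled. For the aligner, the counter and its use of strand, the sources used here give no name or setting, so reads of overlapping genes could be misassigned.

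Deposited counts were tested for TAE minus HCC with the quasi-likelihood test of edgeR 4.0.16 in R 4.3.3, with TMM scaling, filterByExpr and Benjamini-Hochberg adjustment over 14499 genes at 0.05. SE is the absolute log2 change divided by the square root of F. On simulated counts for TAE against HCC (14316 genes tested) it called 42.9% of genes with a 2-fold, 91.8% with a 4-fold and 100% with an 8-fold change. The changed genes were taken from the more abundant genes, and each gene had the same spread in both groups. The simulation thus left out the wider spread of the TAE libraries, and these shares are no estimate of power for the chains. DESeq2 (1.42.0), limma (3.58.1, pseudocounts 1 and 0.1, mean FPKM of at least 0.5), other scalings (median-of-ratios, total counts) and filters (none, mean FPKM of at least 1), a replicate block and leaving out each library were alternatives. Ratios within libraries were tested by exact permutation.

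The labels do not say that replicates are separate animals, and p-values then cover only the spread among these samples, which may be technical. Replicate pairs differed by more than sampling noise (chi-square over degrees of freedom of 47.7 to 194 in TAE and 5.50 to 13.2 in HCC). Values in every library are given for chains with a mean of at least 5 FPKM, for the 4 most abundant of each class and for any that passed. Other chains named individually were chosen after their values were seen. The chains and gene lists were chosen with earlier results of these data known. Of the listed genes, Crtap, Mia3, Hspg2, Lama3, Pecam1 and Ahsg matched no row and were not analysed here.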

Additional observations from a re-analysis of the deposited data

How the results depend on the processing

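Class medians and summed levels stayed positive under every alternative run. The median log2 change of the other chains was 0.47 to 1.28 when a library was left out (0.97 with all libraries). Chains called higher numbered 0 with all libraries, 6 without TMM, 6 without a count filter, 16 with DESeq2, 1 with limma at pseudocount 1 or 0.1, and 0 to 17 when a library was left out. Over all genes, edgeR called 392 higher and 45 lower, which became 961 and 75 without TMM, 760 and 69 without a filter, 1475 and 288 with DESeq2, 632 and 69 with limma at pseudocount 1, 648 higher at pseudocount 0.1, and 0 to 2159 higher and 0 to 1410 lower when a library was left out, the highest of both without TAE replicate 2. The cause was not tested. With the replicate number as a block, edgeR called 0 genes higher and 0 lower (2984 at an unadjusted p under 0.05) and 0 chains. Same-numbered libraries did not deviate together (correlations 0.10, -0.21 and 0.03), so the numbers are no evidence of pairing, and under the block the log2 difference of Col5a1 over Col1a1 was -0.42.

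Differences near 0 changed sign when a library was left out. Log2 differences of ratios ranged from -0.0823 to 0.251 for Col3a1 over Col1a1, from -0.0024 to 0.0509 for Col4a1 over Col4a2 and from -0.2163 to 0.0245 for Col6a3 over Col6a1. Log2 changes ranged from -0.4015 to 0.12 for Col18a1, from -0.16 to 0.7113 for Col8a1 and from -0.6397 to 0.27 for Col24a1. Col13a1 stood at -0.0487 and -0.17 with limma at pseudocounts 1 and 0.1, at -0.22 with the block, at -0.80 without TAE replicate 3 and at -0.0769 without HCC replicate 3. Of 413 alternative values for single chains, 10 reversed, 49 passed the threshold and 354 kept their direction and side. Adding the row described as Col6a3, leaving out Col18a1 and refitting the listed genes without each library were chosen after seeing the data.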
